A study of Mus musculus with 4 samples.

Results

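Integrins are receptors in the cell membrane that bind the extracellular matrix, and 9 of their subunit genes are described here: the alpha subunits Itga1, Itga5, Itga7, Itga8, Itga9 and Itgav and the beta subunits Itgb1, Itgb3 and Itgb5. They were chosen by name, with earlier results of these data known, and are 9 of the 18112 genes common to the files of 3 single-cell RNA libraries. Their levels were read in 3 classes of cells, each set by marker counts in UMIs (unique molecular identifiers, which count captured RNA molecules). A smooth muscle cell had at least 5 UMIs of Myh11 and none of Pdgfra. A fibroblast had at least 1 UMI of Pdgfra and at most 2 of Myh11. A macrophage had at least 10 UMIs of C1qa, C1qb and Lyz2 together and under 5 of Myh11.

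All libraries came from ascending aortas of male Mef2c-mTmG mice, whose ages and numbers the labels do not give. In mTmG mice a membrane reporter turns from red to green where Cre recombinase has acted, and Mef2c is the gene whose regulatory DNA is commonly used to drive Cre in the second heart field. The study asked how cells of that lineage (SHF) and cells of another origin (CNC, an abbreviation left unexplained in the labels) respond to angiotensin II (AngII), a vasoconstrictor peptide. Live cells were sorted by lineage, either at baseline or after infusion of AngII for 3 days, and 3 libraries were used: SHF at baseline, SHF after AngII and CNC after AngII. A CNC sample at baseline is named in the labels but was not analysed here. Each group was 1 library, so no difference has a replicate check, no test was made, and intervals cover counting error only.

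An integrin consists of an alpha and a beta chain, and the pairing decides which matrix protein is bound. Chains that pair with the beta1 subunit include receptors for collagen, laminin, fibronectin and nephronectin, whereas the alphav chain pairs with several beta chains and binds proteins that carry the RGD motif, such as vitronectin and osteopontin. In the arterial wall integrins couple the actin filaments of smooth muscle cells to the elastic and collagenous matrix.

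The smooth muscle gate took 2259 cells of SHF baseline (27.0% of 8374), 4649 of SHF AngII (49.99% of 9299) and 6385 of CNC AngII (62.6% of 10194). The fibroblast gate took 3939 (47.0%), 2640 (28.4%) and 842 cells (8.26%). Macrophages numbered 8, 13 and 1764, so they are described in CNC AngII alone. Median depth was 12441 to 13450 UMIs in smooth muscle cells and 9534 to 15485.5 in fibroblasts. The 6 smooth muscle markers apart from Myh11 (Acta2, Tagln, Cnn1, Mylk, Myl9 and Smtn) stood in fibroblasts at 2.48%, 6.44% and 7.02% of their summed smooth muscle level in SHF baseline, SHF AngII and CNC AngII, respectively, and at 0.723% in macrophages. The macrophage markers summed to 357 CPM in smooth muscle cells and 256 CPM in fibroblasts of CNC AngII, against at most 20.4 CPM in those classes of the SHF libraries. The share of barcodes above 10% mitochondrial UMIs was 7.34%, 14.5% and 5.30%. From 29 to 34 cell barcodes were shared between any pair of libraries.

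Levels are given in CPM, the UMIs of a gene per 1000000 UMIs of the class, and where 3 values are given in a row the order is SHF baseline, SHF AngII, CNC AngII. Each captured molecule is counted at its 3′ end, so the values are not divided by gene length.

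The windows of 250 bases before the start of 3 members are printed first because they belong to receptors whose chains differed in how they stood against baseline. Itga1 and Itga5 were higher in SHF smooth muscle cells and fibroblasts after AngII than at baseline by more than 1.5-fold, whereas Itgb1, the partner of both, was not. The sequences are RefSeq promoter windows on GRCm38.p6, 5′ to 3′ in the direction of the gene. RefSeq windows were matched for 7 of the 9 members, and those of Itga7 and Itgb3 are not shown. Itga1 lies on the minus strand of chromosome 13 (its window is chr13:115101965-115102214), Itga5 on the minus strand of chromosome 15 (chr15:103366792-103367041) and Itgb1 on the plus strand of chromosome 8 (chr8:128685404-128685653). Capitals mark GGGCGG, the core of the GC box bound by Sp1, and GGAATG, a core bound by TEAD factors, on either strand.
Itga1: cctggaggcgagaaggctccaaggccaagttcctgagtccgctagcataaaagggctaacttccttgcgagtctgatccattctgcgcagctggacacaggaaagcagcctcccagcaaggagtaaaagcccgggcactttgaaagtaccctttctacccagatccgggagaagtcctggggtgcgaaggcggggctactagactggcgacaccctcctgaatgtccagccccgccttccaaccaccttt
Itga5: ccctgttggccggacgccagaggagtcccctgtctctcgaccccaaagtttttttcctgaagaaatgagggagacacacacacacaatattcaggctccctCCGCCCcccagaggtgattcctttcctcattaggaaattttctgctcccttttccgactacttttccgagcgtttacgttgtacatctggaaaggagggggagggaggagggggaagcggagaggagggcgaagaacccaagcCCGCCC
Itgb1: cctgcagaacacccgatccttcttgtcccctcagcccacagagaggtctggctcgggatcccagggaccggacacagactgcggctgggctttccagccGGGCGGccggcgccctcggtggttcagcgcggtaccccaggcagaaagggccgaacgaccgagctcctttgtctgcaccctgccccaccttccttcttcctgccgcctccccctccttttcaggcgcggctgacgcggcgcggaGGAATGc
The Itga5 window held 2 copies of GGGCGG, both as the reverse complement, and the Itgb1 window held 1 GGGCGG and 1 GGAATG. Itga1 held neither. Of 32851 windows of the same length, 32.7% held GGGCGG and 12.6% held GGAATG, so either match is common. TGANTCA, the AP-1 site, which 6.75% of windows held, was in none of the 7 members' windows. TATAAA (12.4%) and the CArG box of serum response factor (1.47%) were likewise not in these windows. The Itga9 window (chr9:118711442-118711691) lies inside the Itga9 gene of the GENCODE M21 annotation, which starts at 118606690. It therefore does not cover the bases before that start. The Itga8 window overlaps exonic bases of another gene, E030013I19Rik.

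In smooth muscle cells all 9 subunits were detected in each library, with Itgb1 and Itga8 at the highest levels and Itga1 and Itga7 at the lowest at baseline. Itgb1, the shared beta chain of most matrix receptors, stood at 1223, 1578 and 1742 CPM. Itga8, whose product with beta1 binds nephronectin, stood at 1077, 789 and 773 CPM. Itga8 was thus just under Itgb1 at baseline and further below it in both AngII libraries. Itgb5, a partner of the alphav chain, followed at 299, 281 and 274 CPM, and Itga9, the receptor chain for tenascin C and SVEP1, at 239, 235 and 268 CPM. Itgb5 and Itga9 changed places with Itga5, the fibronectin receptor chain, which stood at 111, 261 and 297 CPM. In SHF AngII the order ran Itgb5, Itga5, Itga9, with counting intervals that did not overlap. In CNC AngII Itga5 was above both, and the counting intervals of Itgb5 (271.10 to 278 CPM) and Itga9 (265 to 271.14 CPM) touched. Itgav stood at 71.6, 67.7 and 73.0 CPM and Itgb3 at 45.3, 42.4 and 51.8 CPM. Itga1, a collagen receptor chain, stood at 36.7, 108 and 114 CPM, and Itga7, a laminin receptor chain, at 34.9, 58.6 and 59.7 CPM. At baseline the counting intervals of Itga1 (34.5 to 38.9 CPM) and Itga7 (32.8 to 37.1 CPM) overlapped, so their order was not resolved there, whereas in both AngII libraries Itga1 was higher than Itga7.

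**Figure D1:**
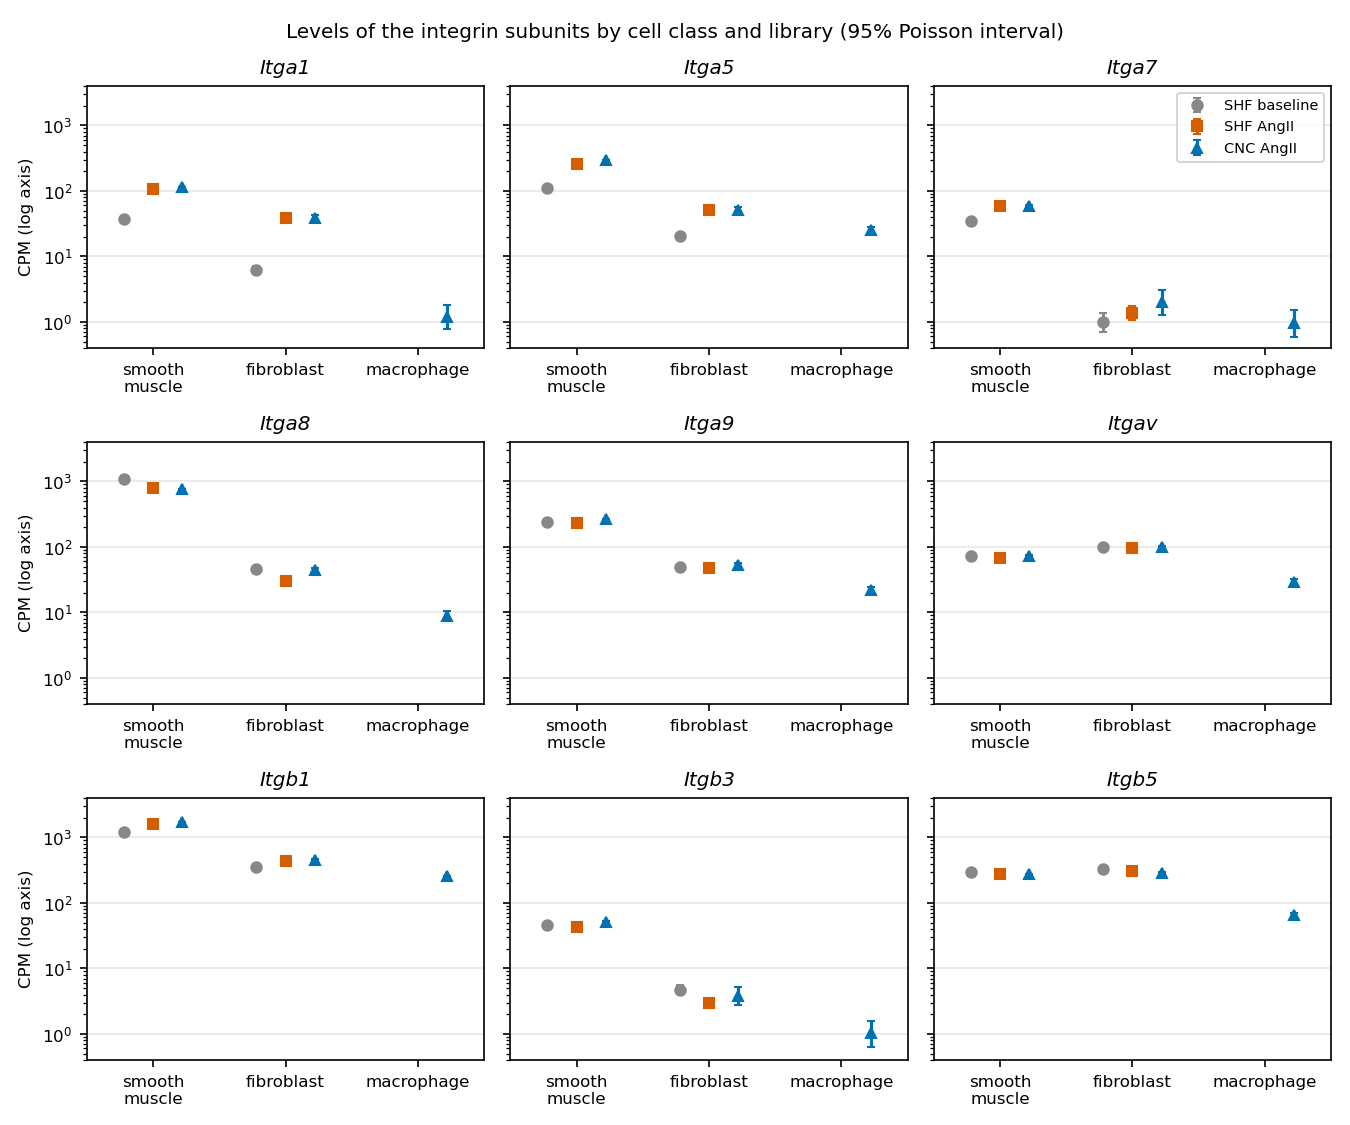
Level of each integrin subunit in CPM on a log axis, by cell class and library, with exact 95% Poisson intervals that cover counting error only and are mostly smaller than the points. Itga1 and Itga5 stand higher in both AngII libraries than in SHF baseline in smooth muscle cells and fibroblasts, whereas Itgav and Itgb5 stand at similar heights in all libraries.

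A single cell seldom showed all subunits. After each cell was thinned to 2000 UMIs, which left out shallower cells, smooth muscle cells held a mean of 3.08, 3.31 and 3.48 of the 9 subunits, and at full depth 6.12, 6.84 and 7.07. Fibroblasts held 1.28, 1.45 and 1.44 thinned and 3.08, 4.05 and 3.85 at full depth, and macrophages 0.718 and 2.20. The share of thinned smooth muscle cells with at least 1 Itgb1 UMI was 90.2%, 91.9% and 94.7%, and for Itga8 it was 85.8%, 76.9% and 77.0%. For Itga5 it was 17.6%, 34.2% and 37.3%, and for Itga1 6.92%, 20.1% and 21.1%. Unthinned, the Itga5 shares were 59.7%, 82.3% and 85.9% and the Itga1 shares 35.4%, 72.3% and 75.3%. Macrophages, which carry little smooth muscle RNA, had thinned shares of 6.16% for Itga5 and 0.114% for Itga1, at a median depth of 11108.5 UMIs.

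Comparing fibroblasts with smooth muscle cells of the same library, 7 of the 9 subunits were lower in fibroblasts by at least 1.5-fold in each of the 3 libraries. The exceptions were Itgav and Itgb5. Ratios are log2((CPM + 1)/(CPM + 1)), and a gene was counted if its mean CPM over both sides was at least 10. By the same rule 12.0%, 15.2% and 14.8% of all genes were lower in fibroblasts in these libraries, and 24.6%, 22.7% and 21.8% were higher. The median log2 ratio of the 9 subunits was -2.36, -2.28 and -2.33, beside 0.19, 0.11 and 0.11 for all genes counted.

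Itga8 in fibroblasts stood at 46.1, 29.7 and 44.1 CPM, which is a log2 ratio to smooth muscle cells of -4.52, -4.68 and -4.10. That was 4.28%, 3.77% and 5.71% of the smooth muscle level, inside the range of the smooth muscle markers named above in the same fibroblasts. With 5% of the summed profile of each library subtracted as free RNA, an assumed share, the log2 ratios were -5.51, -6.55 and -5.45. Itga7 in fibroblasts stood at 1.004, 1.39 and 2.02 CPM, resting on 38, 62 and 23 UMIs, with log2 ratios of -4.16, -4.64 and -4.33. Itgb3, the beta chain that joins alphav in the vitronectin receptor, stood at 4.76, 2.93 and 3.86 CPM in fibroblasts, a log2 ratio of -3.01, -3.47 and -3.44. These 3 genes were the furthest apart between the classes in every library. For such low levels the added 1 CPM pulls the ratio towards 0, and the counting interval without it lies lower for Itga7, from -5.63 to -4.65 at baseline. With 10 CPM added the ratios were -2.03, -2.59 and -2.54 for Itga7 and -1.91, -2.02 and -2.16 for Itgb3, which stayed past 1.5-fold.

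Itga5 in fibroblasts stood at 20.9, 51.8 and 51.8 CPM and Itga9 at 49.9, 47.4 and 52.6 CPM, with log2 ratios to smooth muscle cells between -2.50 and -2.24. Both genes kept nearly the same ratio in each library. Itgb1 stood at 359, 432 and 456 CPM, with log2 ratios of -1.77, -1.87 and -1.93. Itga1 differed from this pattern, at 6.26, 39.1 and 38.8 CPM in fibroblasts, and its log2 ratio went from -2.37 at baseline to -1.44 and -1.53 in the AngII libraries. Relative to smooth muscle cells, the fibroblast level of Itga1 was thus 17.1% at baseline and 36.2% in SHF AngII.

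Itgav and Itgb5, which together form a receptor for vitronectin, were the subunits with fibroblast levels at or above those of smooth muscle cells. Itgav in fibroblasts stood at 98.2, 97.6 and 98.6 CPM, with log2 ratios of 0.45, 0.52 and 0.43. Its 3 fibroblast values lie within their counting intervals of each other. Itgb5 stood at 331, 302 and 290 CPM, with log2 ratios of 0.15, 0.10 and 0.08. Under TMM scaling (trimmed mean of M-values), which lowered the ratios of fibroblasts to smooth muscle cells by 0.25, 0.21 and 0.23, those of Itgb5 fell below 0.

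**Figure D2:**
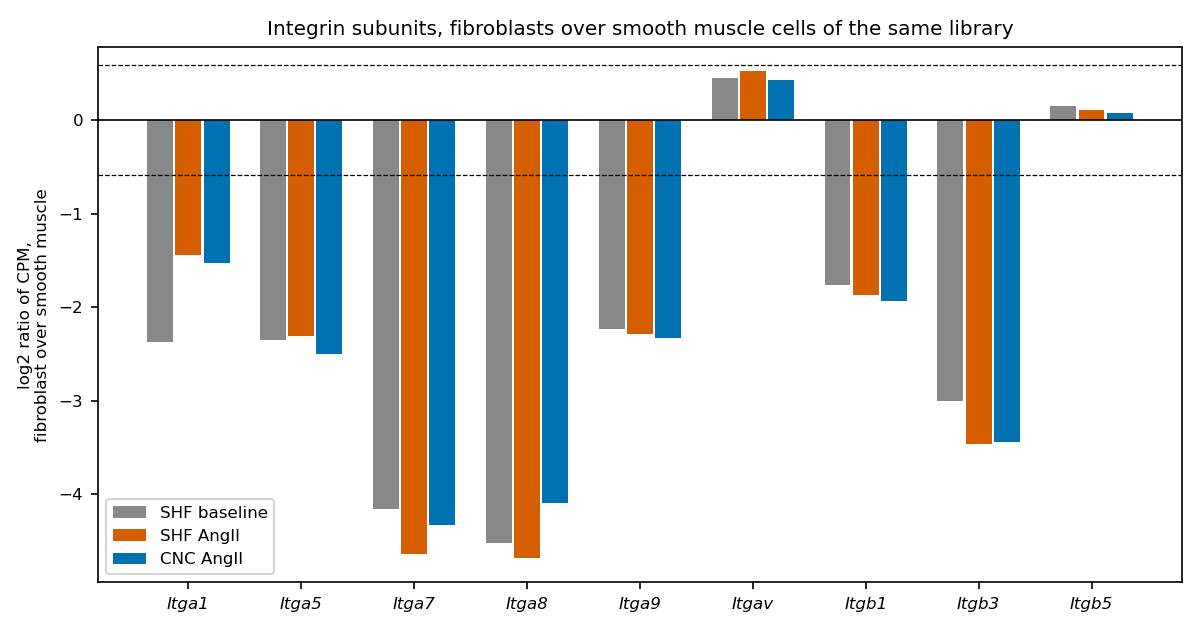
Log2 ratio of CPM in fibroblasts over smooth muscle cells of the same library for each subunit, with 1 bar per library and dashed lines at 1.5-fold. Bars of 7 subunits pass the lower line in every library, while Itgav lies between 0.43 and 0.52 and Itgb5 between 0.08 and 0.15.

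In macrophages of CNC AngII all 9 subunits were lower than in smooth muscle cells by at least 1.5-fold, where 24.3% of all genes were lower and 35.0% higher. Of the 7 with enough UMIs in macrophages or fibroblasts, all were lower in macrophages than in fibroblasts, where 24.2% of all genes were lower and 28.3% higher. After thinning, the ratio of Itga5 to fibroblasts was -0.32 in place of -0.99 and no longer passed 1.5-fold, and with free RNA subtracted Itga8 fell below the minimum level. Itgb1 stood at 255 CPM, Itgb5 at 65.5 CPM, Itgav at 29.5 CPM, Itga5 at 25.5 CPM and Itga9 at 22.1 CPM in macrophages. Itga8 stood at 8.96 CPM, which is 1.16% of its smooth muscle level. Itga1, Itga7 and Itgb3 rested on 25, 20 and 21 UMIs, at 1.21, 0.969 and 1.02 CPM. With the same 5% subtracted as free RNA, the log2 ratio to smooth muscle cells went from -5.70 to -6.86 for Itga1, from -4.95 to -5.94 for Itga7, from -4.71 to -5.74 for Itgb3 and from -6.28 to -9.62 for Itga8.

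Of 17 other integrin genes listed, 16 were found, and few reached the minimum level. Among the macrophage CPM values, Itgam, the alphaM chain of the complement receptor, was 218, Itgb2, the beta chain of leukocyte integrins, 162, Itga4 40.2 and Itga6 30.9, all at least 1.5-fold above smooth muscle cells. Itga3, a laminin receptor chain, was lower in fibroblasts and macrophages than in smooth muscle cells, as 7 of the members were in both. It was above the minimum level in smooth muscle cells, at 34.2, 55.002 and 79.8 CPM, against 3.96, 3.54 and 4.65 CPM in fibroblasts and 1.501 CPM in macrophages. Itga11, a collagen receptor chain, stood at 22.0 and 19.9 CPM in fibroblasts of the SHF libraries and at 1.36 and 1.01 CPM in smooth muscle cells.

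Comparing smooth muscle cells of SHF AngII with those of SHF baseline, 3 of the 9 subunits were higher by at least 1.5-fold and 0 were lower. All 3 were alpha chains that pair with beta1, but so do Itga8, Itga9 and Itgav, which were not higher by that rule. Itga3, an alpha chain outside the members, was also higher, with a log2 ratio of 0.67. Of all genes counted, 8.88% were higher and 15.4% lower, and the median log2 ratio of all genes was -0.10. Itga1 had a log2 ratio of 1.53 (counting interval 1.47 to 1.65), from 36.7 to 108 CPM. Itga5 had 1.23 (1.18 to 1.29), from 111 to 261 CPM, and Itga7 0.73 (0.65 to 0.85), from 34.9 to 58.6 CPM. The intervals of SHF AngII and baseline did not overlap for any of these 3 genes. The comparison also includes whatever else differed between the making of the libraries, because the baseline file was made with another gene list than the AngII files.

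Itga8 was the lowest in that comparison, at -0.45 (-0.47 to -0.43), from 1077 to 789 CPM. Itgb1 had a log2 ratio of 0.37, from 1223 to 1578 CPM. Neither passed 1.5-fold. Itga9, Itgav, Itgb3 and Itgb5 lay between -0.09 and -0.03, close to the median of all genes, and with TMM scaling, which raised this comparison by 0.17, all 4 lay above 0. The stricter cell filter, with a mitochondrial limit of 5%, moved Itgb5 to -0.52, Itgav to -0.25 and Itgb3 to 0.35, still short of 1.5-fold. Itga9 stayed between -0.06 and 0.14 under all alternatives. The small ratios of Itgb5, Itgav and Itgb3 thus depended on the cell filter. So did larger ones, as the same filter put Itga5 at 1.80, Itga1 at 1.74 and Itga7 at 0.91, each above its counting interval. Median mitochondrial shares were 7.36% in smooth muscle cells of SHF baseline and 5.43% in those of SHF AngII.

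In fibroblasts of SHF AngII over SHF baseline, 2 of the 7 subunits at the minimum level were higher and 1 was lower, beside 10.7% and 27.4% of all genes. Itga1 had a log2 ratio of 2.47, from 6.26 to 39.1 CPM, the highest of any subunit in either class, and 1.59 with 10 CPM added in place of 1 CPM. Itga5 had 1.27, from 20.9 to 51.8 CPM. Summed smooth muscle markers, Myh11 included, were also higher in these fibroblasts, at 4410 CPM against 1462 CPM, and summed fibroblast markers were lower, at 15165 CPM against 37155 CPM, and their part in the subunit ratios was not tested. Itga8 had -0.62 (-0.74 to -0.53), from 46.1 to 29.7 CPM, just past 1.5-fold, and was under it in 6 of 13 alternative settings. Itgb1 had 0.27, Itgav -0.01, Itga9 -0.07 and Itgb5 -0.13, beside a median of -0.21 over all genes, and TMM scaling, which raised this comparison by 0.27, put Itgav, Itga9 and Itgb5 above 0.

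**Figure D3:**
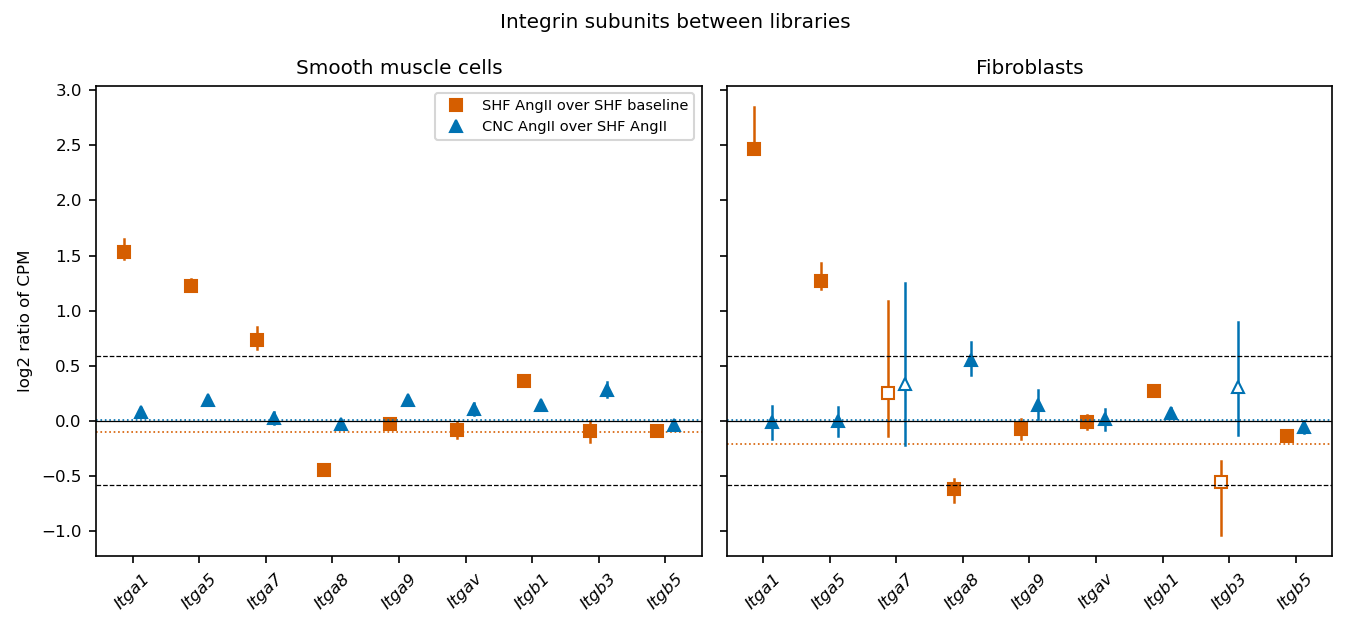
Log2 ratio of each subunit between libraries in smooth muscle cells and fibroblasts, with 95% counting intervals computed without the added 1 CPM, dashed lines at 1.5-fold and dotted lines at the median of all genes. Filled points are genes at the minimum level and open points lie below it, and Itga1 and Itga5 stand above the upper line in both classes for SHF AngII over SHF baseline.

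Between the AngII libraries few genes of any kind passed 1.5-fold, so a count of 0 does not set the subunits apart. In smooth muscle cells of CNC AngII over SHF AngII 0 of 9 passed 1.5-fold, where 1.98% of all genes did. The widest log2 ratio of a member was 0.28 for Itgb3, from 42.4 to 51.8 CPM, above that of 95.8% of genes. Itga3, outside the members, had 0.53. Of the 9 subunits 7 lay above 0, with a median of 0.11 beside 0.005 for all genes. Itga5 had 0.19, from 261 to 297 CPM, and its counting intervals did not overlap. In fibroblasts 0 of 7 passed, where 2.32% of all genes did, and the widest was 0.56 for Itga8, from 29.7 to 44.1 CPM, which passed with a stricter cell filter or with free RNA subtracted. That ratio was above those of 98.5% of genes, while the median of the 7 was 0.01 beside 0.006. Itga1 and Itga5 in fibroblasts were 39.1 and 38.8 CPM and 51.8 and 51.8 CPM, each inside the other's counting interval. The CNC AngII library has no baseline of its own here, so no response to AngII can be given for that lineage.

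Because the alpha chains share Itgb1, UMIs were also counted per 100 Itgb1 UMIs of the same cells, a ratio that does not depend on the library totals. In smooth muscle cells the Itga8 value was 88.1 at baseline (86.8 to 89.4), from 49.5 to 50.5 by its counting interval in SHF AngII and 44.4 (44.0 to 44.8) in CNC AngII. The Itga1 value was 3.00, 6.84 and 6.54, and the Itga5 value 9.07, 16.5 and 17.0. Itga8 therefore made up less of the alpha chain RNA beside Itgb1, and Itga5 and Itga1 more, in both AngII libraries. Itga7 stood at 2.85, 3.71 and 3.43, Itga9 at 19.5, 14.9 and 15.4 and Itgav at 5.85, 4.29 and 4.19. In fibroblasts the highest of these values was that of Itgav, at 27.4, 22.6 and 21.7, and the values of Itga1 were 1.75, 9.04 and 8.51.

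Counted per 100 Itgav UMIs, Itgb3 was 63.3, 62.7 and 71.0 in smooth muscle cells and Itgb5 418, 415 and 376. In fibroblasts Itgb3 was 4.84, 3.00 and 3.91 and Itgb5 337, 309 and 294. Itgb3 thus differed between the classes far more than Itgb5 did. Itgb8, a beta chain outside the members, was not counted per Itgav. It stood at 17.8, 14.5 and 11.2 CPM in fibroblasts and 9.69, 2.93 and 0.691 CPM in smooth muscle cells. Its log2 ratio at baseline was 0.82, past 1.5-fold, and in both AngII libraries it was below the minimum level for that comparison. Between SHF baseline and SHF AngII, the Itgb3 intervals overlapped in smooth muscle cells (59.1 to 67.8 and 59.9 to 65.7) but not in fibroblasts (4.15 to 5.62 and 2.505 to 3.57), where the counts were 180 and 131 UMIs.

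**Figure D4:**
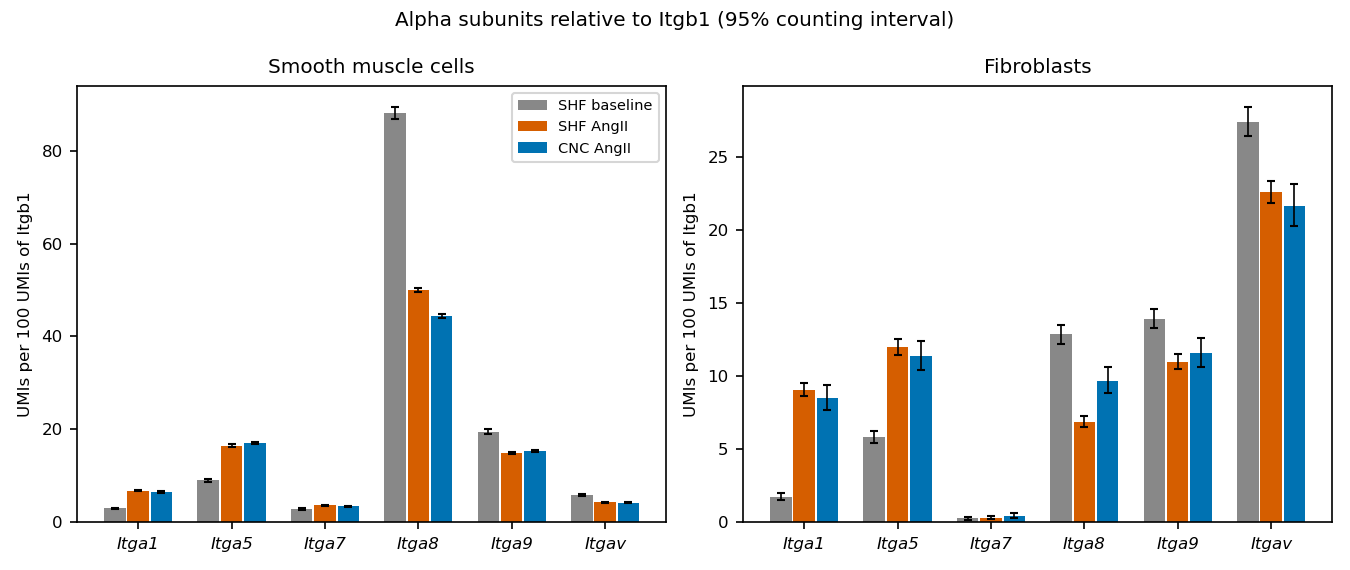
UMIs of each alpha chain per 100 Itgb1 UMIs in smooth muscle cells and fibroblasts, by library, with 95% counting intervals and a separate linear axis from 0 for each class. In smooth muscle cells Itga8 is 88.1 at baseline and 44.4 in CNC AngII, with SHF AngII between them and nearer to CNC AngII.

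Within classes, subsets were taken by a gene that is no member. Smooth muscle cells with at least 5 UMIs of Spp1, which encodes osteopontin, a ligand of alphav integrins, numbered 156 in SHF AngII and 537 in CNC AngII. Against the 4192 and 5027 smooth muscle cells of the same library with no Spp1 UMI, leaving out cells with 1 to 4, their log2 ratios were 0.44 and 0.37 for Itga5, 0.39 and 0.31 for Itgav and 0.44 and 0.39 for Itgb3. Those of Itga1 were -0.50 and -0.36 and those of Itga8 -0.33 and -0.48. Itga9 had -0.23 and -0.31, Itga7 -0.16 and -0.28, Itgb1 0.23 and 0.08 and Itgb5 0.22 and 0.14. These cells were deeper, with a median of 23126 UMIs against 12700.5 in SHF AngII, and their summed smooth muscle markers were lower, at 48068 against 70136 CPM there and 43172 against 65416 CPM in CNC AngII. The part of depth and of that difference in these ratios was not tested. Among smooth muscle cells with a UMI of Igfbp2 or of Tnnt2, all ratios lay between -0.37 and 0.37.

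In fibroblasts with a UMI of Pi16, a marker of adventitial fibroblasts, Itga8 was lower in each library, at 35.8 against 112, 22.4 against 114 and 29.8 against 144 CPM. The log2 ratios were -1.62, -2.29 and -2.24. Itga7, on few UMIs, was also lower, at -1.68, -2.01 and -1.98, and Itga1 had -1.15, -0.14 and -0.65. Itga5 had 0.65, 0.38 and -0.29 and Itgb3 0.77, -1.50 and 0.13, and the others lay between -0.36 and 0.20. Smooth muscle markers were lower in the same cells, at 1298 against 2483, 4032 against 8670 and 3804 against 7791 CPM. The Pi16 cells were deeper, with medians of 9613 against 9109.5, 15880 against 10981 and 12867 against 9722 UMIs. The part of either in these ratios was not tested. In fibroblasts of SHF AngII with a UMI of Cthrc1, a gene of matrix-producing fibroblasts, Itga1 had 0.60 and Itga8 -1.91, and in CNC AngII Itga1 had -0.18 and Itga8 -1.36. The Cthrc1 cells were deeper, with medians of 19231 against 10656.5 UMIs in SHF AngII and 15157.5 against 8765.5 in CNC AngII. Their smooth muscle markers stood at 4057 against 5402 CPM in SHF AngII and 4389 against 4124 CPM in CNC AngII, and the part of either in these ratios was not tested. Itgav lay between -0.07 and 0.17 in the Pi16, Cthrc1 and Comp or Chad subsets of every library.

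Macrophages with a UMI of Lyve1, a marker of resident macrophages, had more Itga9, at 24.7 against 11.2 CPM (log2 ratio 1.08), and less Itgb5, at 54.0 against 114 CPM (-1.07). Itga5 and Itgav were both at -0.66 in that subset. Fibroblast markers were lower in the same cells, at 261 against 441 CPM, as were smooth muscle markers, at 423 against 528 CPM, and their part in the ratios was not tested. Macrophages with a UMI of Ccr2, a receptor of monocyte-derived cells, had -1.004 for Itga9, at 12.1 against 25.3 CPM, and 0.52 for Itgb5, with fibroblast markers at 343 against 280 CPM. The Itga9 values rest on 44 UMIs outside the Lyve1 subset and 60 inside the Ccr2 subset.

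**Figure D5:**
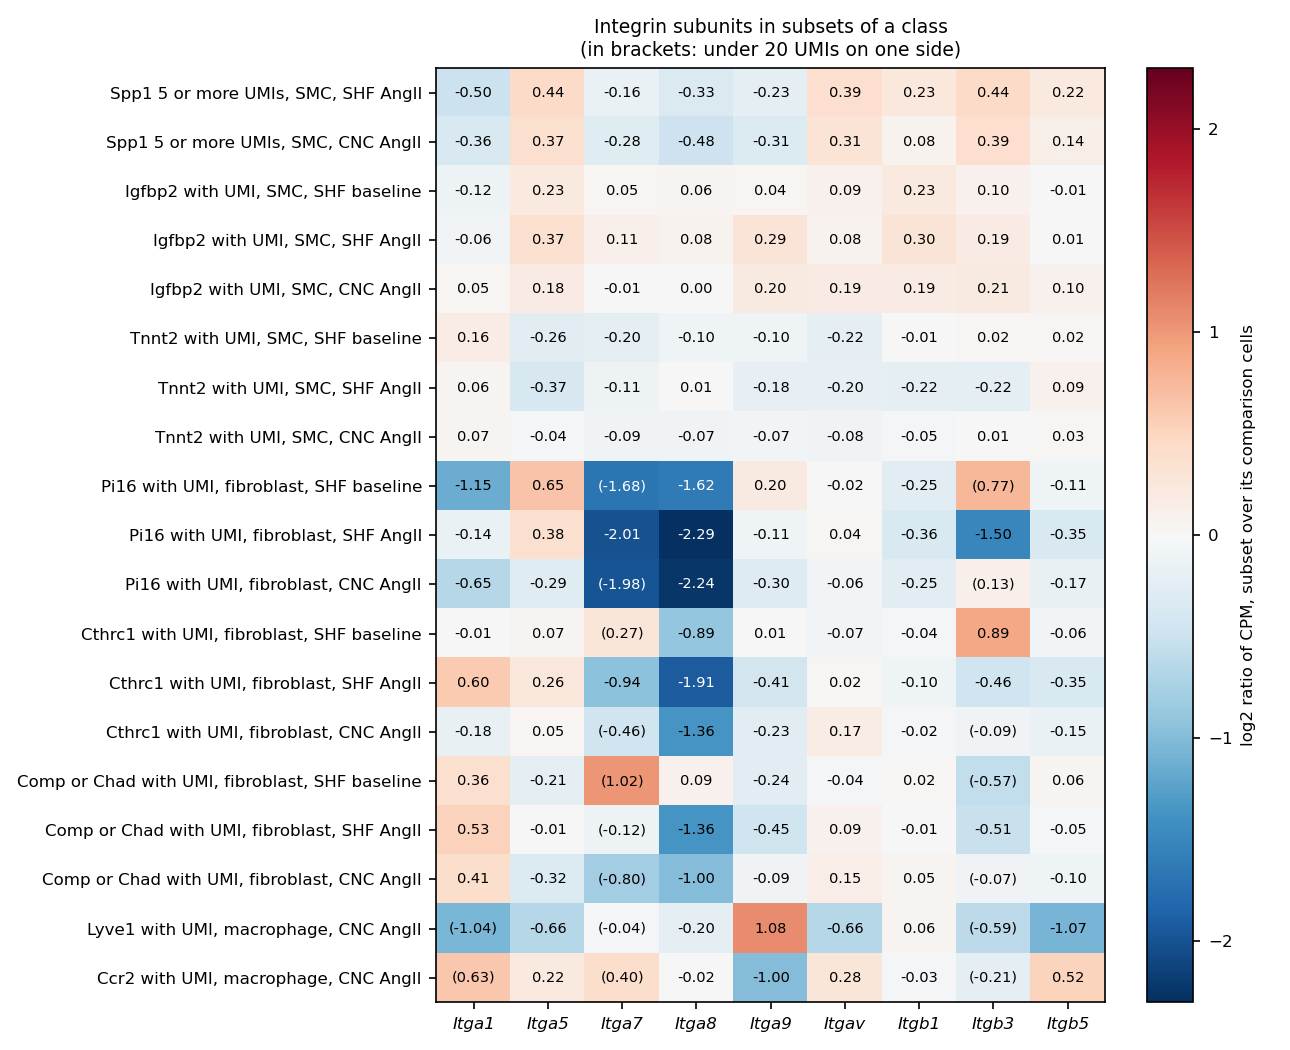
Log2 ratio of CPM for each subunit in a subset of a class over the cells of that class and library with no UMI of the gene, with 1 row per subset and library. Values in brackets have under 20 UMIs on a side. Itga8 in Pi16 fibroblasts lies from -2.29 to -1.62, and Itga9 in macrophages is 1.08 in the Lyve1 subset and -1.004 in the Ccr2 subset.

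Genes of integrin ligands were counted from a list of 26. In smooth muscle cells of SHF AngII over SHF baseline, 8 of the 22 at the minimum level were higher and 0 lower, where 8.88% and 15.4% of all genes were, with a median log2 ratio of 0.39 beside -0.10 for all genes. Spp1 went from 0.542 to 144 CPM (log2 ratio 6.55), Tnc, which encodes tenascin C, from 8.17 to 58.6 CPM (2.70), Postn, which encodes periostin, from 932 to 2188 CPM (1.23), and Fn1, which encodes fibronectin, from 421 to 770 CPM (0.87). Fibronectin is the ligand of the Itga5 receptor and collagens are those of the Itga1 receptor. Of the collagen genes listed, Col1a1 alone passed 1.5-fold, at 0.64, whereas Col1a2, Col3a1, Col4a1 and Col4a2 did not. In fibroblasts 9 of 21 were higher and 4 lower, beside 10.7% and 27.4% of all genes, so the lower ones were no larger a share than among all genes. The median was 0.16 beside -0.21. Spp1 had 2.05, Postn 1.61, Col4a1 1.29 and Col4a2 1.16, whereas the laminin genes Lama2, Lamb1 and Lamc1 had -1.21, -1.17 and -0.68 and Ccn1, a matricellular protein, had -1.15.

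In CNC AngII over SHF AngII, 2 of 22 ligand genes were higher in smooth muscle cells and 1 lower, where 1.98% of all genes passed either way. Spp1 had 0.91, from 144 to 271 CPM, Tnc 0.85, from 58.6 to 107 CPM, and Lama2 -0.66. In fibroblasts Spp1 was 1.16 and was the 1 of 22 that passed, beside 2.32% of all genes. Between the classes, Npnt, which encodes nephronectin, the ligand of the Itga8 receptor, was in smooth muscle cells at 783, 645 and 895 CPM and in fibroblasts at 10.9, 7.27 and 11.9 CPM. Svep1, a ligand of the Itga9 receptor, was reversed, at 1.12, 3.41 and 0.733 CPM in smooth muscle cells and 173, 305 and 267 CPM in fibroblasts. Npnt was thus higher in the class with the higher level of its receptor chain, and Svep1 in the class with the lower. Tnc, which encodes the other named ligand of the Itga9 receptor, was not called between the classes at baseline. In both AngII libraries it was lower in fibroblasts by at least 1.5-fold, as Itga9 was.

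Of 22 adaptor genes, which link integrin tails to actin, 1 of 19 was higher in smooth muscle cells of SHF AngII over SHF baseline, Bcar1 at 0.86, and 1 lower, Fblim1 at -0.61, neither a larger share than the 8.88% and 15.4% of all genes. In fibroblasts 4 of 20 were higher, Tln2 (1.51), Actn1 (0.9996), Tln1 (0.71) and Flna (0.61), and 2 lower, Lims2 (-0.88) and Pxn (-0.77), beside 10.7% and 27.4% of all genes. Talins, the products of Tln1 and Tln2, bind the tails of beta chains. Between CNC AngII and SHF AngII, 0 passed in smooth muscle cells or fibroblasts, where 1.98% and 2.32% of all genes did. In fibroblasts over smooth muscle cells 13 of 20, 14 of 21 and 14 of 21 were lower, beside 12.0%, 15.2% and 14.8% of all genes. There 1, 2 and 2 were higher, beside 24.6%, 22.7% and 21.8%, and the medians were -1.33, -1.09 and -0.90. In macrophages Fermt3, the kindlin of blood cells, stood at 186 CPM and Fermt2, the kindlin of other tissues, at 5.23 CPM, against 2.502 and 501 CPM in smooth muscle cells.

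To see which genes had the most similar profiles, the log2 CPM of each subunit was correlated with that of 4200 genes over the 7 groups of cells (smooth muscle cells and fibroblasts of each library, and macrophages). The groups share libraries and classes, so the coefficients are a description. For Itga8 the closest were Ppp1r14a, an inhibitor of myosin phosphatase (Pearson's r = 0.998), Pbxip1 and Ttll7. Itga7 was closest to Col18a1, Dmpk and Il17b, and Itgav to Morf4l2, Thbs2 and Prrx1. For Itgb1 the list held another integrin gene, Itga3, with Hacd1 and Actn4. Itga9 was closest to Rasl12, Inpp5a and Ttll7, Itgb3 to Dtna, Spint2 and Inpp5a, and Itgb5 to Nedd4, Sdc2 and Lama4. Itga1 was closest to Mlf2 (r = 0.995), Josd2 and Rock2, and Itga5 to Ndufs5, Ndufb2 and Glrx2.

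In the GENCODE M21 annotation of mm10, 3 of the members share more than 3% of their exonic bases with another gene. Reads there could be counted for either gene where both lie on the same strand. On opposite strands, as for Itga8 and Itgav, that would need counting that ignores the strand. Itga1 (chromosome 13, 114953096 to 115101964, minus strand) shares 3.68% with Gm49395 on the same strand and has Pelo inside it. Pelo, which was chosen after its values were seen, stood at 14.9, 14.5 and 13.8 CPM in smooth muscle cells and so did not move with Itga1 there. In fibroblasts it stood at 17.6, 27.8 and 28.9 CPM, and its log2 ratio of SHF AngII over SHF baseline was 0.63, past 1.5-fold in the same direction as Itga1. Whether reads of Pelo and Itga1 were mixed there was not tested. Itga8 (chromosome 2, 12106632 to 12301922, minus strand) shares 5.05% with E030013I19Rik on the opposite strand. This gene, also chosen after its values were seen, stood at 163, 96.3 and 79.4 CPM in smooth muscle cells, in the same order as Itga8. Whether reads of E030013I19Rik and Itga8 were mixed was not tested. Itgav (chromosome 2, 83724397 to 83806916, plus strand) shares 5.90% with Gm13684 on the opposite strand. Itga5 (chromosome 15, 103344286 to 103366763), Itga9 (chromosome 9, 118606690 to 118901003), Itgb1 (chromosome 8, 128685654 to 128733200), Itgb3 (chromosome 11, 104608000 to 104670476) and Itgb5 (chromosome 16, 33829665 to 33949338) share none. Itga7 (chromosome 10, 128933818 to 128958282) shares 0.111% with Mettl7b.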

How the data were processed

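Cells were captured on the 10x Chromium system with the Single Cell 3′ v3 kit, per the labels' protocols. The deposited files hold raw UMI counts per gene and barcode. The submitters' processing notes name mm10, fastp, STAR 2.5 and HTSeq 0.6.1 without their roles, and the annotation is not given in the sources used here. The baseline file lists 18760 genes and the AngII files 32285. Names were matched directly or, for 518 genes, by synonym, 13 repeated names were left out, and 18112 common genes remained, with 99.9%, 99.6% and 99.6% of the UMIs.

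Total UMIs were 92474476, 147854476 and 150954701 over 9412, 11166 and 11098 barcodes. Barcodes needed 500 or more detected genes and no more than 10% of UMIs from mitochondria, and 207, 192 and 279 doublets marked by Scrublet (scanpy 1.11.5) were left out. UMIs were summed per class, scaled to CPM and compared as log2 ratios with 1 CPM added. Intervals at 95% are exact Poisson intervals for sums and conditional binomial ones for ratios. Calculations were tested on simulated data. TMM factors came from edgeR 4.0.16.

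The members, gene lists and subsets were chosen with earlier results of these data known. Named genes are the members, up to 4 highest and 4 lowest genes past 1.5-fold per list and comparison, and the 3 most similar profiles. Not every gene so selected is reported. Alternatives changed the cell filter, gates, doublets, scaling, depth, pseudocount, minimum level and free RNA.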

Additional observations from a re-analysis of the deposited data

Results flagged for a closer look

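The cells that met no gate were used in no comparison above. They numbered 2169 in SHF baseline (25.9% of the kept cells), 1999 in SHF AngII (21.5%) and 1211 in CNC AngII (11.9%). In SHF AngII over SHF baseline 2 of the 9 subunits were higher by at least 1.5-fold and 1 lower, where 9.09% and 22.7% of all genes were, and in CNC AngII over SHF baseline 5 were higher and 0 lower, where 9.56% and 23.4% were. The log2 ratio to SHF baseline of Itga1 was 1.33 in SHF AngII and 1.68 in CNC AngII. That of Itga5 was 1.21 and 1.95. For 3 subunits the CNC AngII library alone passed, Itga7 at 1.10 (0.55 in SHF AngII), Itgb1 at 0.74 (0.24) and Itgb3 at 0.98 (-0.19). Itga8 was lower in SHF AngII, at -0.65, and had -0.18 in CNC AngII. Which cell types these cells are was not determined, the make-up of the group can differ between libraries, lineage and treatment cannot be told apart in CNC AngII over SHF baseline, and their part in the ratios was not tested.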

How the results depend on the processing

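No paired analysis was possible because each group had 1 library. Under 13 alternative settings the 43 ratios past 1.5-fold gave 559 values, of which 0 had the other sign and 552 stayed past 1.5-fold. Of 494 values of the remaining ratios, 34 had the other sign. The count of members past 1.5-fold was the same under all 13 for smooth muscle cells of SHF AngII over SHF baseline and of CNC AngII over SHF AngII. For fibroblasts of SHF AngII over SHF baseline it was 2 in place of 3 under 6 of them, because Itga8 fell short, with log2 ratios from -1.49 (free RNA subtracted) to -0.20 (thinned to 2000 UMIs). For fibroblasts of CNC AngII over SHF AngII it was 1 (Itga8) in place of 0 with the stricter cell filter and also 1 with free RNA subtracted. The cause was not tested. The count for fibroblasts over smooth muscle cells of SHF AngII ranged from 7 to 8. The gene added was Itgav, which was higher in fibroblasts, at 0.60 when thinned to 2000 UMIs. The count for macrophages over fibroblasts ranged from 6 (without Itga5 when thinned, without Itga8 with free RNA subtracted) to 9 (no minimum level). Depth limits Itga7 and Itgb3 in fibroblasts and Itga1, Itga7 and Itgb3 in macrophages most.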
